A study of Rattus norvegicus with 3 samples.

Results

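The regions described here are the H3K9me3 and H3K4me3 peaks that start in the first 22 Mb of rat chromosome 8, in rn6 coordinates. They comprise 1883 of the 49591 peaks in the H3K9me3 list and 41 of the 7684 peaks in the H3K4me3 list. The sequence was divided into a proximal domain from 0 to 4 Mb, a distal domain from 16 to 22 Mb and the sequence between them, and the remainder of the chromosome from 22 Mb to the last listed peak served as the reference. Both domains were chosen by their H3K9me3 cover in 1-Mb windows, so H3K9me3 values in them are a description and carry no test.

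Chromatin came from untreated round spermatids of Sprague-Dawley rats, isolated from testis. Round spermatids are haploid germ cells that have finished meiosis and have not yet elongated. The series has 3 libraries: a precipitate with an antibody against H3K4me3, a precipitate with an antibody against H3K9me3, and a library made without antibody. The labels name no animals and no pooling. Each mark therefore rests on 1 library, with no replicate error and no p-value. The lists give no reads per peak, and the depth is unknown. A peak is taken to mark an excess over the library without antibody, which no label says in so many words. The cell type could not be checked at marker promoters, because no rn6 annotation was used here, and genes are not assigned to peaks for the same reason.

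H3K9me3 is a histone methylation that heterochromatin proteins bind, and it is known for silencing repeats and some clustered gene families over long stretches of chromosome. H3K4me3 is laid down at the promoters of active or poised genes and at CpG-rich sequence. A stretch rich in H3K9me3 is usually poor in active promoters, and the second mark shows where promoter-type chromatin is found inside it.

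Both domains were densely covered by H3K9me3. The proximal domain held 619 peaks over 963 kb, 24.1% of its length, and the distal domain held 954 peaks over 1552 kb, 25.9% of its length. The sequence between them held 310 peaks and was covered to 3.06%, and the rest of the chromosome held 850 peaks and was covered to 1.03%. The domains thus lay at 23.4 and 25.1 times the rest in cover, and the sequence between them at 2.96 times. Together they make up 7.50% of the chromosome and held 62.4% of its H3K9me3 covered length. The reference is itself uneven: without its dense stretch from 37 to 39 Mb, the domains lay at 38.4 and 41.3 times the rest.

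The excess came mostly from the number of peaks. The proximal domain had 154.8 peaks per Mb (95% Poisson interval 142.8 to 167) and the distal domain 159 (149 to 169), against 25.8 (23.04 to 28.9) between them and 7.64 (7.13 to 8.17) in the rest. The intervals assume independent peaks and reflect counting error alone. The domains were therefore 20.3 and 20.8 times as dense in peaks as the rest, while their mean peak width was 1.15 and 1.21 times that of the rest. The intervals of the 2 domains overlapped.

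**Figure D1:**
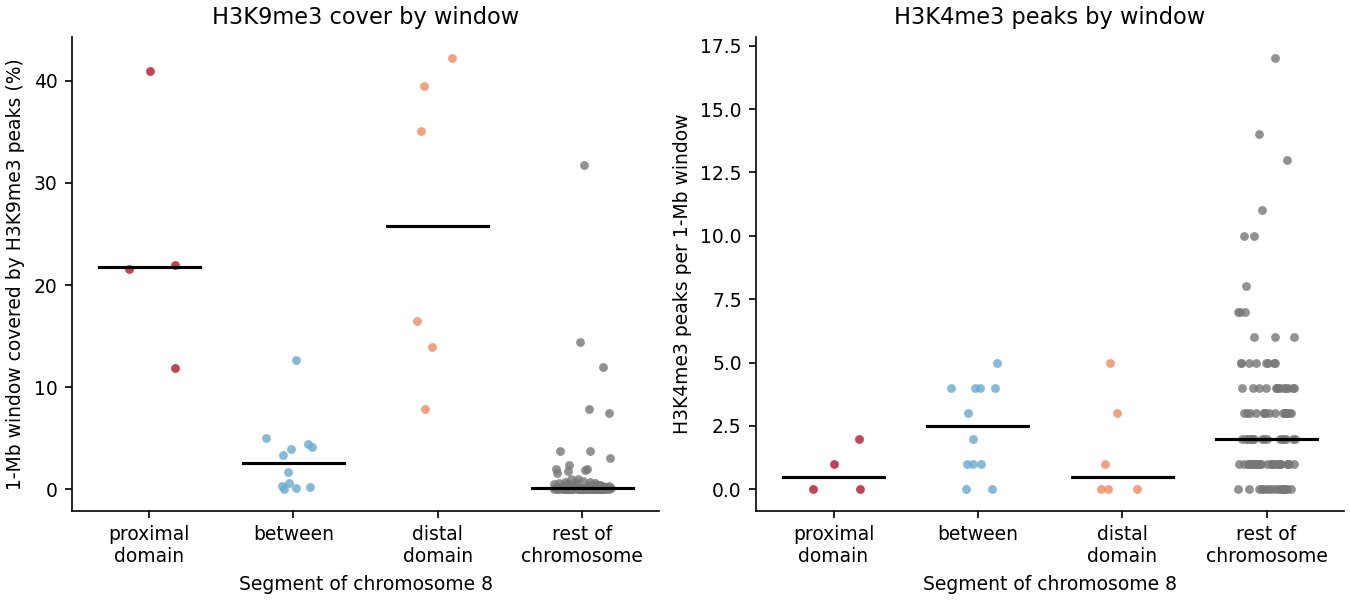
Left, percent of each 1-Mb window covered by H3K9me3 peaks; right, number of H3K4me3 peaks per window, for the 4 segments of chromosome 8 (points, windows; black lines, medians). The domain windows sit from 7.88% to 42.2%, whereas the median window of the rest lies at 0.149%. The highest windows of the rest and of the sequence between the domains, 31.8% and 12.7%, fall inside the domain range. The median number of H3K4me3 peaks is 0.5 in each domain, 2.5 between them and 2 in the rest.

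All 10 windows of 1 Mb in the domains were over 5% covered by H3K9me3, the level behind the choice of the domains, where 9.8% of the 2786 windows on chromosomes 1 to 20 and X were. The densest was the window from 20 to 21 Mb at 42.2%, which ranked 19 of the 2786. The window from 0 to 1 Mb followed at 40.9% with rank 22, that from 19 to 20 Mb at 39.5% with rank 23 and that from 18 to 19 Mb at 35.1% with rank 31. The proximal domain was thus densest at the tip of the chromosome and the distal domain in its middle. From 1 to 2 Mb and from 2 to 3 Mb the cover was 21.9% and 21.6%, and from 3 to 4 Mb it was 11.9%. The distal domain began with 16.53% and 13.96% in the windows from 16 to 17 and 17 to 18 Mb and ended with 7.88% from 21 to 22 Mb.

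The windows just outside the domains held less. Those from 4 to 5 and from 15 to 16 Mb, on the inner sides, were covered to 3.36% and 3.98%, and that from 22 to 23 Mb to 0.0565%. The last H3K9me3 peak inside the limit lay at 21798457 to 21799666 with a score of 48.1, and the first beyond it at 22036436 to 22037000 with a score of 34.7. The score is the authors' value per peak, which starts at 30, and no header states what it is. For H3K4me3 the corresponding peaks were at 21673953 to 21674662 with a score of 37.6 and at 22054317 to 22055073 with a score of 38.5. H3K9me3 thinned out before this limit: the first 0.5 Mb of its last window held 56 peaks over 15.1% of the sequence, and the last 0.5 Mb held 2 peaks over 0.666%.

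At 100 kb, each domain broke into blocks. The proximal domain consisted of a block from 0 to 1.4 Mb with 353 peaks at 42.6% cover, a sparse stretch from 1.4 to 2 Mb with 25 peaks at 5.32%, a block from 2 to 3 Mb at 21.6%, a second sparse stretch from 3 to 3.5 Mb with 20 peaks at 3.47%, and a short block from 3.5 to 3.8 Mb with 60 peaks at 29.2%. The distal domain opened with 6.54% from 16 to 16.7 Mb, went up to 29.7% from 16.7 to 17.4 Mb and was down at 7.27% from 17.4 to 18.1 Mb. Its main block, from 18.1 to 20.9 Mb, held 674 peaks at 41.4% cover. These block limits were drawn after the values were seen.

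Each domain held both dense and empty bins. Over 30% was covered in 16 of the 40 bins of 100 kb in the proximal domain and in 26 of the 60 in the distal domain, against 1 of the 120 between them. The densest bins were 1 to 1.1 Mb at 64.7% and 20.1 to 20.2 Mb at 71.8%. Bins without a peak numbered 1 in the proximal domain, 6 in the distal domain and 54 between them. The longest stretch without a peak was 200.3 kb in the proximal domain, at 1410955 to 1611225, and 281 kb in the distal domain, at 21517427 to 21798456. Assembly gaps were not looked up, so whether unsequenced stretches account for any of these was not tested.

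**Figure D2:**
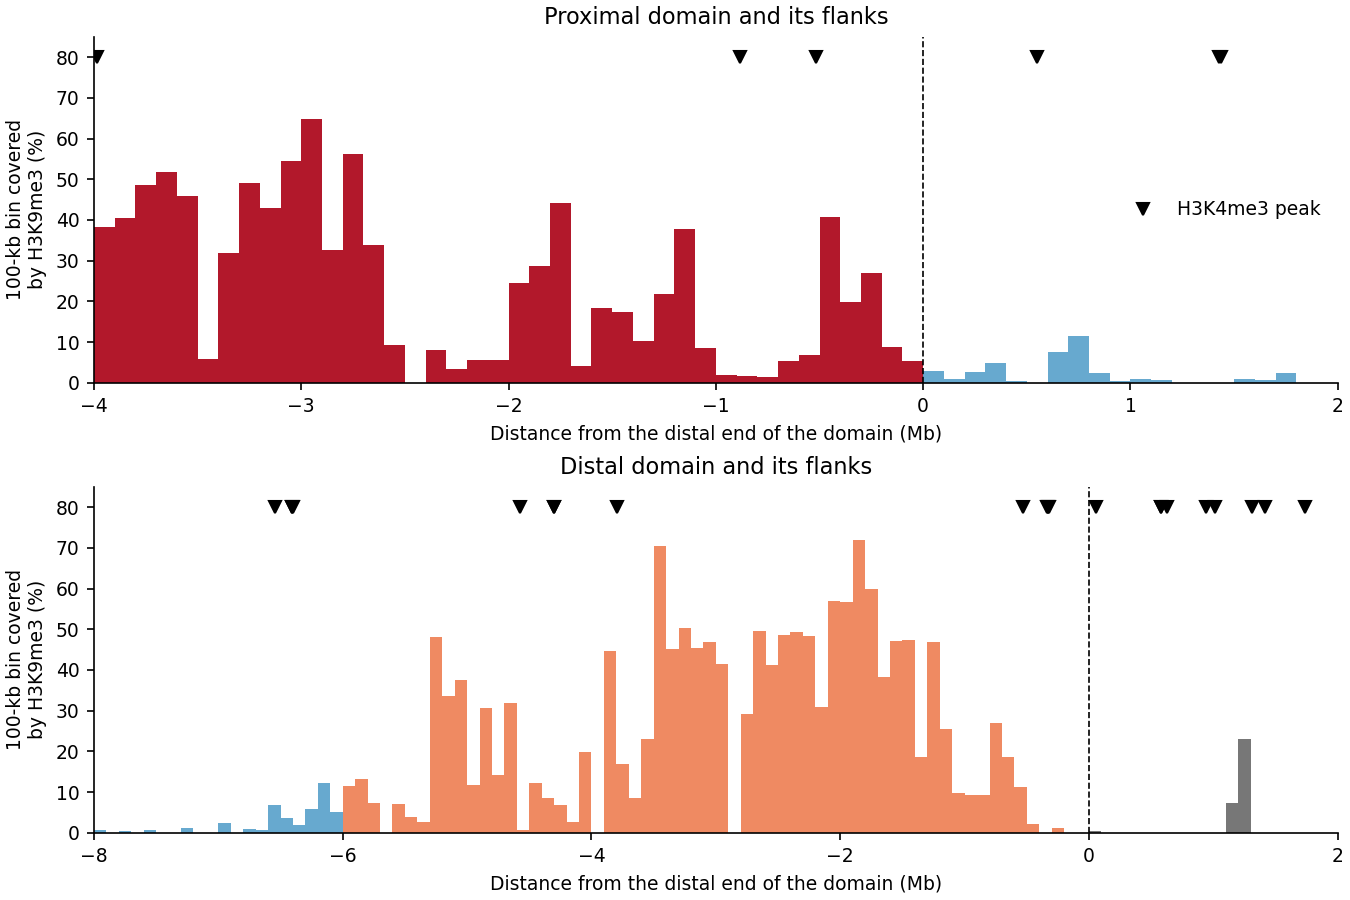
Percent of 100-kb bins covered by H3K9me3 peaks (bars) against distance in Mb from the distal end of each domain (dashed line), with H3K4me3 peaks as black triangles at a fixed height; red and orange bars are the domains, blue the sequence between them and grey the rest. The triangles inside the domains mostly stand over low bars, and the cover is 0.666% in the last 0.5 Mb of the distal domain.

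The sequence between the domains was not uniform either. Its median window was covered to 2.54%, with a range from 0.0547% at 12 to 13 Mb to 12.7% at 11 to 12 Mb. That maximum belonged to a small block from 10.9 to 11.4 Mb, which had 105 peaks and 27.9% cover and no H3K4me3 peak. A smaller block from 6.4 to 6.6 Mb held 22 peaks at 18.2% cover. From 12 to 15 Mb, by contrast, 8 peaks covered 0.180%. The 3 longest stretches without an H3K9me3 peak below 22 Mb all lay here, 968 kb at 12395912 to 13363783, 829 kb at 8224097 to 9052975 and 731 kb at 10193540 to 10924888.

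Single peaks were wider and had higher scores inside the domains than between them. The median width was 1129 bp in the proximal and 1187 bp in the distal domain, against 894 bp between them and 895 bp in the rest, where the whole list had 927 bp. The median score was 73.0 and 81.3 in the domains, 52.9 between them and 60.7 in the rest, where the whole list had 60.4. The 10% of the list with the highest scores, at or above 254, took in 12.4% of the proximal domain's peaks (Wilson interval 10.1 to 15.3%), 13.7% of the distal domain's (11.7 to 16.1%) and 3.55% of those between (1.99 to 6.24%). The rest of the chromosome reached 12.8% (10.7 to 15.2%), so the domains did not stand out from it in their strongest peaks. Peaks over 5 kb were 9 of 619 and 24 of 954 in the domains, 2 of 310 between them and 20 of 850 in the rest, where the whole list had 1.67%.

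**Figure D3:**
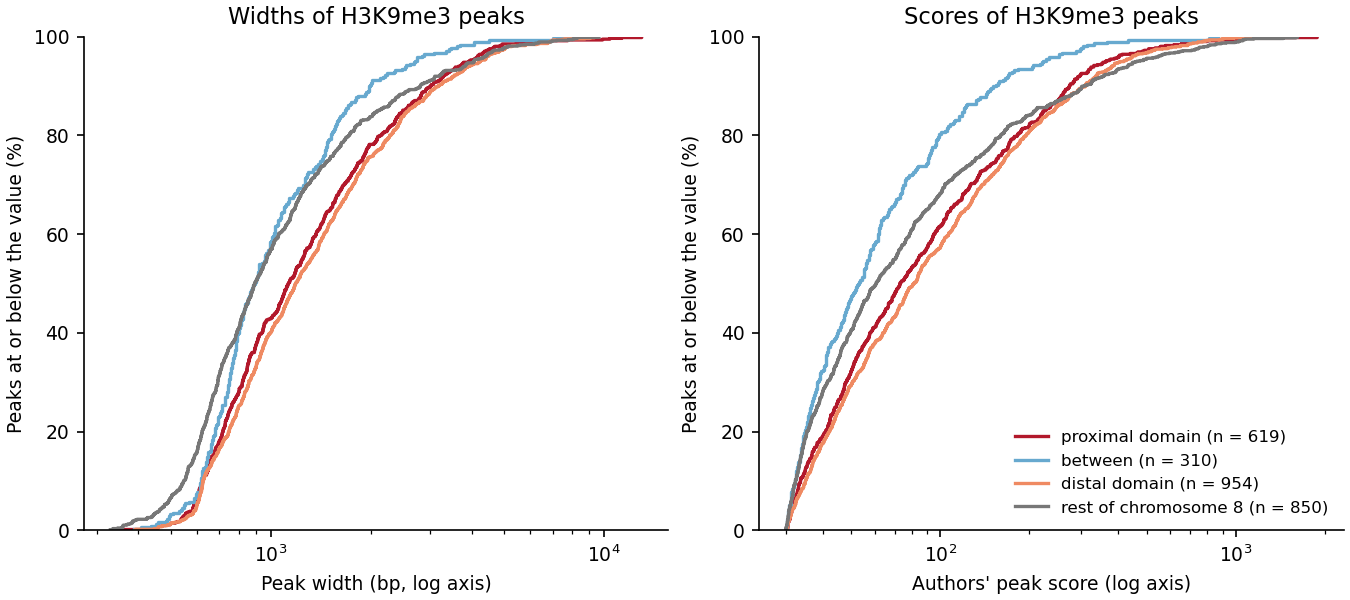
Cumulative percent of H3K9me3 peaks by width in bp (left) and by the authors' score (right), both on log axes, for the 4 segments of chromosome 8. Peaks of the domains are shifted to larger widths and scores against those between the domains, with medians of 1129 and 1187 bp against 894 bp, while the curve of the rest meets those of the domains at the upper end.

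Apart from the peak with the highest score, the 5 strongest H3K9me3 peaks of each domain were over 5 kb wide. In the proximal domain the highest score, 1882, belonged to the peak at 15169 to 18714, 3546 bp wide and near the tip of the chromosome. It was followed by 1415 at 1046687 to 1059633, which with 12947 bp was also the widest peak below 22 Mb, by 1023 at 2093375 to 2103252, by 997 at 36862 to 48141 and by 855 at 294861 to 305252. In the distal domain the highest were 1440 at 18878256 to 18887764, 1033 at 20820057 to 20827035, 983 at 17335575 to 17343182, 910 at 19711035 to 19717897 and 898 at 20198262 to 20205024. Between the domains 2 peaks came near these values, 869.8 at 15836710 to 15843726 and 810.2 at 6544945 to 6553953, and the next had 432. No peak below 22 Mb came near the top of the list, 3217.

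Neighbouring peaks stood closer together in the domains, and a minority formed runs of near-continuous cover. The domains were chosen for dense H3K9me3, which in part sets this spacing in advance. The median gap between neighbours was 0.957 kb in the proximal and 0.831 kb in the distal domain, against 2.71 kb between them and 2.30 kb in the rest. Gaps under 1 kb made up 51.8% and 54.6% of the gaps in the domains, 35.9% between them and 37.8% in the rest, where all chromosomes gave 39.9%. Runs of at least 5 peaks with gaps under 1 kb numbered 29 in the proximal domain, 37 in the distal domain and 7 between them. These runs took in 184 of the 619 peaks of the proximal domain, 252 of the 954 of the distal domain and 40 of the 310 between them. The longest run covered 91.3% of 47.9 kb with 14 peaks, at 20125989 to 20173885. The next, at 20074792 to 20112552, covered 92.98% of 37.8 kb with 10 peaks, and the third lay in the proximal domain at 2087115 to 2119118, with 12 peaks over 86.7% of 32.0 kb. The next 2, at 18572953 to 18602819 and 1046687 to 1075042, were 29.9 and 28.4 kb long.

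H3K4me3, which was not used to choose the domains, was sparse in them. The proximal domain held 3 peaks and the distal domain 9, together 1.2 per Mb (Poisson interval 0.620 to 2.10). Between the domains there were 29 peaks, or 2.42 per Mb (1.62 to 3.47), and in the rest 323, or 2.90 per Mb (2.59 to 3.24). The domains thus had 0.413 times the density of the rest (interval of the ratio 0.211 to 0.732), whereas the sequence between them stood at 0.833 times (0.549 to 1.22), an interval that includes equality. Against the sequence between them the domains stood at 0.497 times, with an interval from 0.231 to 1.003 that just includes equality. These intervals also treat peaks as independent. In the distal domain, however, 4 peaks lay in a single stretch without H3K9me3 and 2 were neighbours at 17.6 to 17.7 Mb, so the intervals may be too narrow. Part of the domains was occupied by H3K9me3 itself. Counting only H3K4me3 peaks off H3K9me3 per Mb of sequence without an H3K9me3 peak, the domains had 1.34 and the rest 2.43, a ratio of 0.549 whose interval of 0.260 to 1.03 includes equality.

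The ratio differed by score threshold. With scores at or above the median of the H3K4me3 list, 5 peaks in the domains and 150 in the rest gave a ratio of 0.371 (0.119 to 0.885). With a score of at least 100, which 22.3% of the whole list reached, 4 peaks in the domains and 48 in the rest gave 0.927 (0.243 to 2.53). At that threshold a lower density was not detectable with so few peaks. Its interval also contains the ratios at the lower thresholds, so whether the density depends on the score cannot be told.

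The 3 H3K4me3 peaks of the proximal domain were unlike each other. The first, at 15671 to 18506, had a score of 357, the highest below 22 Mb, and lay wholly within the H3K9me3 peak of score 1882 named above, so the strongest peak of each mark below 22 Mb shared this site. The second, at 3115460 to 3116111 with a score of 37.5, and the third, at 3480765 to 3481299 with a score of 33, were weak and lay in the sparse stretch from 3 to 3.5 Mb, 1.69 and 13.8 kb from the nearest H3K9me3 peak. No H3K4me3 peak was listed from 1 to 3 Mb. Strong shared sites also occurred in the rest of the chromosome. Its 3 highest H3K9me3 scores, 1615, 1593 and 1446, belonged to peaks on H3K4me3, while the next, 1147 and 1073, belonged to peaks off it.

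In the distal domain, 8 of the 9 H3K4me3 peaks lay off H3K9me3. A group of 4 stood beyond the main block, in the 281-kb stretch without H3K9me3. Its strongest, at 21660769 to 21664292, was 3524 bp wide with a score of 280, and the others, at 21667662, 21669038 and 21673953, had scores of 54.2, 45.9 and 37.6. All 4 were between 123.8 and 134 kb from the nearest H3K9me3 peak. A peak of score 39.7 at 21465551 to 21466233 stood 11.1 kb from H3K9me3, where the domain thins out.

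A pair at 17697931 to 17699055 and 17699636 to 17702211, with scores of 105 and 158, fell into the sparse stretch from 17.4 to 18.1 Mb, 36.3 and 38.0 kb from H3K9me3. So did a peak of score 40.6 at 17421470 to 17422376, 20.7 kb away. The ninth, at 18208357 to 18209094, had a score of 35.5 and was the single H3K4me3 peak of the main block. It lay on an H3K9me3 peak with a score of 484, and 39.7% of the 100 kb around it was covered by H3K9me3. Around the other domain peak on H3K9me3, at 15671 to 18506, this local cover was 37.3%. Around the 10 domain peaks off H3K9me3 it was at most 7.11%. These 10 were taken because they lie off H3K9me3, which in part sets the low cover around them in advance.

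Between the domains, 25 of the 29 H3K4me3 peaks lay off H3K9me3. The strongest were 283 at 11837618 to 11840665, 207 at 6302854 to 6305493, 197 at 6032055 to 6035613 and 126 at 4547964 to 4549600, and they stood 138.5, 34.04, 62.2 and 109 kb from the nearest H3K9me3 peak. The 4 on H3K9me3 had lower scores than these strongest peaks, on both sides of the median of all 29, 43.8. A cluster of 3 at 15591057, 15595679 and 15597520, with scores of 37.3, 61.5 and 62.8, sat on 3 H3K9me3 peaks with scores of 178, 174 and 297, and another, at 9832177 with a score of 35.9, touched one with a score of 52.3.

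**Figure D4:**
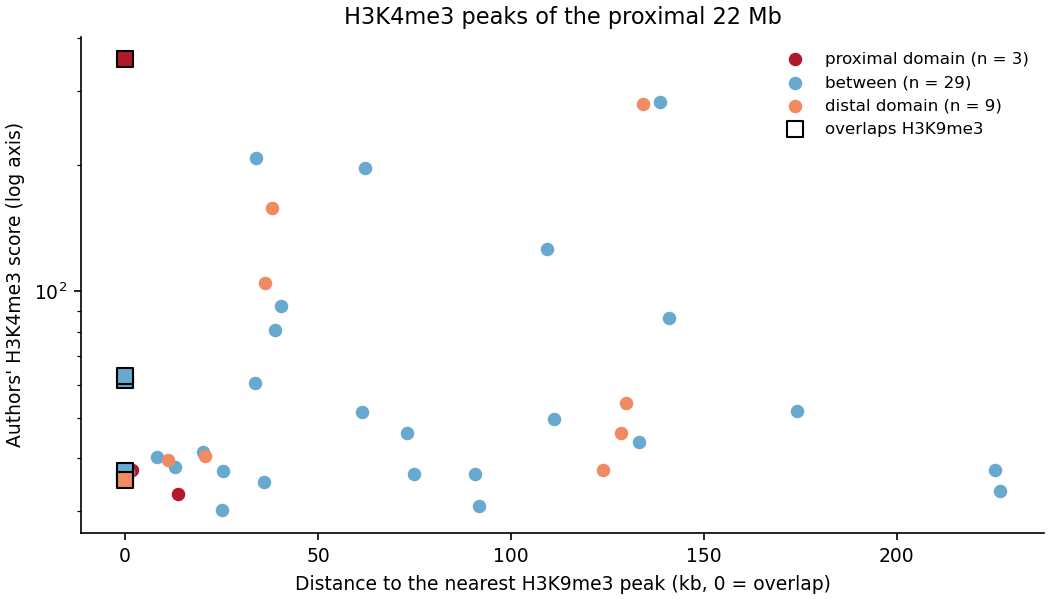
The authors' score (log axis) of each of the 41 H3K4me3 peaks below 22 Mb against its distance in kb to the nearest H3K9me3 peak, coloured by segment; squares mark the 6 peaks that overlap H3K9me3. The peak with the highest score, 357, is one of these squares, while the other 7 peaks with scores of at least 100 lie at least 34.04 kb from H3K9me3.

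Sharing of the marks was rare below 22 Mb. Of the 41 H3K4me3 peaks, 6 overlapped an H3K9me3 peak by at least 1 bp (14.6%, Wilson interval 6.88 to 28.4%), where the share over all chromosomes was 31.9%. The shares were 2 of 12 in the domains (16.7%, 4.70 to 44.8%), 4 of 29 between them (13.8%, 5.50 to 30.6%) and 55 of 323 in the rest (17.03%, 13.3 to 21.51%). The domains had 24.4 times the H3K9me3 cover of the rest, and a difference in this share was not detectable with 12 peaks. In the other direction, 6 of the 1883 H3K9me3 peaks lay on H3K4me3 (0.319%, 0.146 to 0.693%), against 4.44% over all chromosomes. The region was chosen for its many H3K9me3 peaks, which by themselves lower this share. It was 6.24% in the rest of chromosome 8. In the regions of chromosomes 13, 14 and 7 described next it was 0.573% (0.424 to 0.774%), 3.04% and 4.88%.

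The values of 3 other regions rich in H3K9me3 are given beside these. In 1 to 35 Mb of chromosome 13, covered to 38.0%, 52 of 60 H3K4me3 peaks lay on H3K9me3 (86.7%, 75.8 to 93.1%). Without its window from 33 to 34 Mb, which held 35 of them, 17 of 25 did (68.0%, 48.4 to 82.8%). In 46 to 52 Mb of chromosome 14, covered to 19.99%, the count was 29 of 30 (96.7%, 83.3 to 99.4%), and in 0 to 11 Mb of chromosome 7, covered to 16.6%, it was 88 of 101 (87.1%, 79.2 to 92.3%). The interval for the chromosome 8 domains, 4.70 to 44.8%, lay below all of these. All these intervals treat neighbouring peaks as independent and may be too narrow. The regions were chosen with earlier results known, that on chromosome 7 because it carries both marks, so its share is no independent comparison. No difference was tested, because both lists come from 1 library each.

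A comparison that does not use H3K4me3 to choose regions takes all runs of at least 3 windows with over 5% H3K9me3 cover, 29 in all with the 2 of chromosome 8. It was added after the values were seen. Of the 27 on other chromosomes, 24 held at least 3 H3K4me3 peaks, and their share on H3K9me3 ran from 25% to 100%, with a median of 88.6%. In 19 of these 24 it was over 50%. It was 55 of 58 at 0 to 4 Mb of chromosome 2 and 11 of 21 at 140 to 144 Mb of chromosome 6. The lowest, 1 of 4 peaks each at 86 to 89 Mb of chromosome 2 and 162 to 165 Mb of chromosome 5 (4.56 to 69.9%), had intervals that include the 16.7% of the chromosome 8 domains. The 3 runs left out by this filter held 1 or 2 H3K4me3 peaks each, with 1 peak on H3K9me3 in all. On chromosome 2, the run from 13 to 17 Mb had 28.6% H3K9me3 cover, and 1 of its 2 H3K4me3 peaks lay on H3K9me3. On chromosome 5, the runs starting at 10 and 89 Mb had 19.9% and 13.5% cover, with 0 of 1 and 0 of 2. All 3 intervals, the narrowest being 0 to 65.8%, include the 16.7% as well. Few H3K4me3 peaks in a run rich in H3K9me3 were thus not limited to chromosome 8. Taken singly, the proximal domain of chromosome 8 had 1 of 3 peaks on H3K9me3 (33.3%, 6.15 to 79.2%), inside the range of the 24. The distal domain had 1 of 9 (11.1%, 1.99 to 43.5%), below that range, with an interval that reaches into it.

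**Figure D5:**
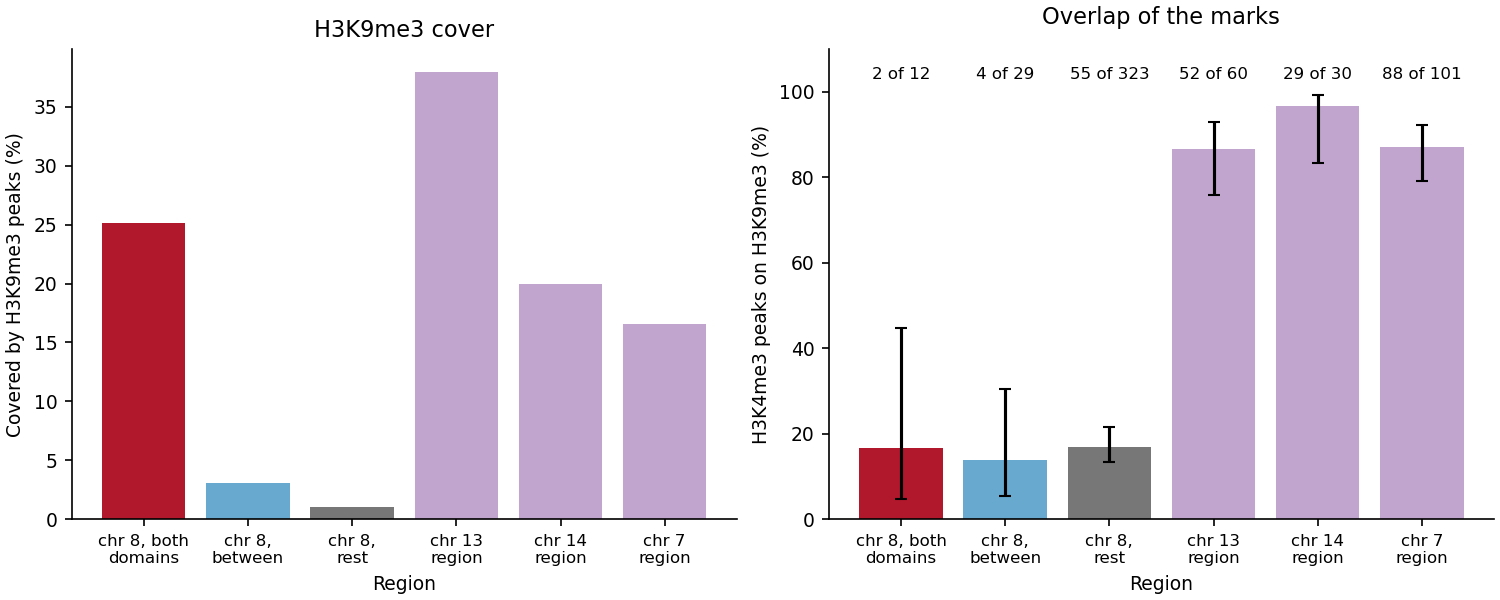
Percent of sequence covered by H3K9me3 peaks (left) and percent of H3K4me3 peaks that overlap H3K9me3 (right, with 95% Wilson intervals and counts) in the chromosome 8 domains, between them, in the rest of chromosome 8 and in 1 to 35 Mb of chromosome 13, 46 to 52 Mb of chromosome 14 and 0 to 11 Mb of chromosome 7. H3K9me3 cover of the chromosome 8 domains, 25.2%, lies between those of the chromosome 13 and 14 regions, 38.0% and 19.99%, and 2 of their 12 H3K4me3 peaks overlap H3K9me3, against 52 of 60, 29 of 30 and 88 of 101.

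Over windows with more than 5% H3K9me3 cover, the contrast with other chromosomes lay in the H3K4me3 peaks on H3K9me3 rather than in those off it. Over the 12 windows below 22 Mb with over 5% H3K9me3 cover, 3 of 20 H3K4me3 peaks lay on H3K9me3, or 0.25 per Mb (0.0516 to 0.731), and 17 lay off it, or 1.42 per Mb (0.825 to 2.27). Over the 256 such windows of the other chromosomes the values were 6.47 per Mb (6.16 to 6.79) on and 1.06 per Mb (0.940 to 1.197) off. The numbers elsewhere are driven by crowded windows: the median was 1.5 H3K4me3 peaks per window, against 1 here. Counted by window, 3 of the 12 held an H3K4me3 peak on H3K9me3, against 134 of the 256 elsewhere (52.3%). Over all 273 such windows, chromosome 8 included, the share was 51.6%. Windows without any H3K4me3 peak numbered 5 of the 12 here and 70 of the 256 elsewhere. The 12 include 2 windows between the domains, from 9 to 10 and from 11 to 12 Mb, with 4 H3K4me3 peaks each. The window from 21 to 22 Mb held 5, all off H3K9me3. The density off H3K9me3 is thus not that of the densest sequence: the 6 windows over 20% covered held 2 H3K4me3 peaks, both on H3K9me3.

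Beyond 22 Mb, the 5 windows of the same chromosome over 5% cover, at 34, 37, 38, 41 and 69 Mb, held 26 H3K4me3 peaks. Of these, 21 lay on H3K9me3 (80.8%, 62.1 to 91.5%), 12 of them in the window from 41 to 42 Mb. The windows were mixed: that from 34 to 35 Mb held 1 H3K4me3 peak, off H3K9me3. That from 69 to 70 Mb held 4, with 2 of them on H3K9me3. In the 107 windows of the rest with at most 5% cover, the share was 34 of 297 (11.4%, 8.31 to 15.6%). These window classes were set up after the values were seen.

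The windows densest in H3K9me3 held few H3K4me3 peaks. The 6 windows below 22 Mb with over 20% H3K9me3 cover held 2 H3K4me3 peaks, both on H3K9me3, and 4 of the 6 held none. Windows with such cover made up 2.87% of all windows on chromosomes 1 to 20 and X. Windows without an H3K4me3 peak made up 26.6% of all. The other 74 windows of the genome with over 20% cover held 436 H3K4me3 peaks, 400 of them on H3K9me3, and 34 of the 74 held none. The remaining 16 windows below 22 Mb held 39 H3K4me3 peaks, or 2.44 per Mb, with 4 of them on H3K9me3.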

How the data were processed

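The 2 deposited peak lists were analysed, 1 per mark, each with a sequence name, start, end and score per peak. Peak names are those of the caller MACS, as deposited in each row. The tools listed in the submitters' processing notes are Bowtie 1.2, FastQC and bcl2fastq, with rn6 as the build and no roles. Not given in the sources used here are the control, the caller settings, the handling of duplicates and that of reads with several matches, which can decide how many peaks repeats receive. The deposited score per peak is the authors' own and was used to describe and filter peaks within a list. Positions are the deposited starts and ends, with starts counted from 1.

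Peaks were assigned by start to 0 to 4, 4 to 16, 16 to 22 Mb and the rest of chromosome 8, and covered length was clipped to each segment. Intervals at the 95% level are Poisson for counts, Wilson for shares and exact conditional for ratios. All of them treat peaks as independent. No test between marks or regions was run. The functions recovered planted covers and overlaps on simulated data. Named were, per mark and segment, the 5 highest scores and 3 widest peaks, all H3K4me3 peaks of both domains, the 3 longest stretches without H3K9me3 and the 5 longest runs; any other feature was picked with its values in view. The segments and lists were chosen with earlier results of these data known. Alternatives were other score thresholds, borders, overlap rules, window sizes and references. Computation used Python 3.11.15 with pandas 2.3.3, numpy 2.4.6 and scipy 1.17.1, and plots matplotlib 3.10.9. Gene names, promoters and sequences follow another assembly (GRCr8) in the tables used here and were not joined to rn6 positions. The library without antibody was not analysed here.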

Additional observations from a re-analysis of the deposited data

How the results depend on the processing

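Of 47 recomputed values, 26 stayed within the counting interval of the reported value (or within 1.5 times the reported number of windows), 21 moved outside it and 0 changed direction. A change of direction could be recorded only for ratios to the rest whose interval leaves out equality. It could not be for the shares, the number of windows or the H3K4me3 ratio of the sequence between the domains. The H3K9me3 cover ratios to the rest, 23.4 (proximal), 25.1 (distal) and 2.96 (between), became 20.3, 20.8 and 3.38 in peaks per Mb, 162, 174 and 20.5 against the median window of the rest, and, in a setting chosen after seeing the data, 38.4, 41.3 and 4.88 without 37 to 39 Mb. With borders moved inwards by 0.5 Mb, the domains gave 20.6 and 29.3, and outwards 20.94 and 21.8. With scores at or above the list median, distal and between gave 27.9 and 2.48, and with scores of at least 100, 28.9 and 1.93. The H3K4me3 ratio of the domains, 0.413, was 0.371 with scores at or above the list median and 0.927 with scores of at least 100, where 4 peaks were left. Ending the distal domain 0.5 Mb earlier, also chosen later, gave 0.290. With windows of 0.5 Mb, 21 of 44 below 22 Mb were over 5% covered, in place of 12 of 22 at 1 Mb; the unit differs, so the larger number is no gain. The domains' share of the H3K9me3 covered length, 62.4%, was 65.6% with scores at or above the median and 57.6% in peak numbers. Where no other reason is given, the cause was not tested. No paired analysis was possible because each group has 1 library. The depth is unknown, so no limit of detection can be given for sequence without a peak.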
